A study of Homo sapiens with 20 samples.

Results

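The interleukin-1 family members described here are 10 genes of 60271 in the deposited count table: the receptor genes IL1R1, IL1R2, IL1RL1 and IL1RAP, and the ligand genes IL1A, IL1B, IL1RN, IL18, IL33 and IL36G. They are listed members of the family whose levels in these same libraries were already known when they were picked, so their differences between groups are given as a description and carry no p-value. Another 12 genes of the family and 50 genes of its pathway, taken as whole lists of known family and pathway genes, are given with tests. These lists too were chosen with earlier results of these data known. RNA was sequenced from MDA-MB-468 cells, an epithelial cell line from a triple negative breast cancer, in 5 groups of 4 biological replicates: an untreated control, and cells that had received EGF at 50 ng/mL for 12 h, 24 h, 48 h or 72 h before harvest. Every group, the control included, went through the same serum starvation for 24 h before EGF was first added. Seeding and harvest were shared by all groups, which differed in when EGF was added. On that schedule, groups with fewer hours of EGF had been longer in serum-free medium before it came, if that medium was kept. Those hours and the hours of EGF cannot be told apart here. The cells are 1 established line, and the line was not authenticated after delivery. What the labels call biological replicates is not spelled out as separate cultures or passages, so the errors measure the spread between these libraries.

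Interleukin-1 cytokines are signals of tissue damage and infection, made by epithelial cells as well as by cells of the immune system. IL-1α (IL1A) and IL-1β (IL1B) bind IL1R1, which signals only after the accessory receptor IL1RAP joins it, while the decoy receptor IL1R2 binds the same ligands without signalling and the receptor antagonist IL1RN occupies IL1R1 without recruiting IL1RAP. IL1RL1, also called ST2, pairs with IL1RAP to receive IL-33, and the gene also makes a soluble form that traps the ligand. IL-18 has receptors of its own, IL18R1 and IL18RAP, and a secreted inhibitor, IL18BP.

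Most members lie in 2 clusters on chromosome 2 (GRCh38 coordinates, from the GENCODE 29 annotation). The receptor cluster spans 461 kb at chr2:101991844-102452565 and holds 6 family genes on the plus strand in the order IL1R2, IL1R1, IL1RL2, IL1RL1, IL18R1 and IL18RAP. The ligand cluster spans 360 kb at chr2:112773915-113134016 and holds 9 genes, with IL1A (chr2:112773915-112784590) and IL1B (chr2:112829751-112836903), both on the minus strand, at one end and IL1RN (chr2:113107214-113134016, plus strand) at the other. IL36G lies between them at chr2:112973203-112985665. IL1RL1 is at chr2:102311502-102352037 with 15 merged exons. IL1R1 is at chr2:102064544-102179874 and IL1R2 at chr2:101991844-102028544. Outside these clusters are IL1RAP (chr3:190514051-190659750), IL18 (chr11:112143251-112164117, minus strand) and IL33 (chr9:6215786-6257983).

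The starts of IL1RL1, IL1A and IL1RN are shown because 4 of the members' 18 promoter windows, all in these 3 genes, hold a match to the AP-1 motif, and because IL1RL1 has 2 starts that differ in it. AP-1 is a transcription factor that acts downstream of the EGF receptor. The windows are the RefSeq bases before each annotated start (GRCh38.p14), 9 of the 10 members matched by symbol, and IL18 had none. Both strands were searched for AP-1 (TGANTCA), for the cyclic AMP response element (TGACGTCA) and for the kappaB motif. Capitals mark AP-1 matches, and all sequences run 5′ to 3′ on the strand of the gene.
IL1RL1, upstream start, chr2:102311313-102311562, plus strand: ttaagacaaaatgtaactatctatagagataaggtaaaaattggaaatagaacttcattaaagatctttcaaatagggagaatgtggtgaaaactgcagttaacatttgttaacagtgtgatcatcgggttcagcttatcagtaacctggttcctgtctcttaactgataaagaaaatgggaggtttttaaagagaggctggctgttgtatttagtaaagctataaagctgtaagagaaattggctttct
IL1RL1, downstream start, chr2:102337007-102337256, plus strand: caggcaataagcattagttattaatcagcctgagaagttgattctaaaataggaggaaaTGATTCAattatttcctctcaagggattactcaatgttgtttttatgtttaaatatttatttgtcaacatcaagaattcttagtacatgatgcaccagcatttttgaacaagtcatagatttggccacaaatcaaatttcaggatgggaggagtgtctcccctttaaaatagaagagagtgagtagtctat
IL1A, chr2:112784401-112784650, minus strand: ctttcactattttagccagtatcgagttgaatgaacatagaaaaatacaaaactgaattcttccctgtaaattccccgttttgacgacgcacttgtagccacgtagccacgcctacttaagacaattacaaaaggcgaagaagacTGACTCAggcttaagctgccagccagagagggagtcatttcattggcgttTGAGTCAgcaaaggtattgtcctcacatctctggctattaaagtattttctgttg
IL1RN, chr2:113117721-113117970, plus strand: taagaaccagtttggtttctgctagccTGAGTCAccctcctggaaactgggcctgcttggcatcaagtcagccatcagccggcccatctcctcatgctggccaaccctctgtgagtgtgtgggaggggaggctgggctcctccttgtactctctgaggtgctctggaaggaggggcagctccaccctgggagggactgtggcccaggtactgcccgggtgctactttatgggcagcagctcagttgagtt
The downstream IL1RL1 start had its match 191 bases before the start, and the upstream IL1RL1 window had none. The IL1A window had matches 105 and 55 bases before the start. A second annotated IL1A start lies close to it, and its window shares the match at 105, there 12 bases before the start. The IL1RN match was 223 bases before the start. No member window held the response element or the kappaB motif. Over all 35116 windows of 27305 genes, 6.57% held AP-1, 1.65% the response element and 5.21% kappaB. These matches are letters in a window and not measured binding.

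The libraries held 15611961 to 25856953 counts (median 20398047), and 33535 genes had at least 1 count. Levels are CPM, counts divided by the total of the library after TMM scaling, which puts libraries of different depth on one scale. The mean share of mitochondrial counts ran from 9.41% at 12 h to 15.0% at 72 h. All 8 markers of the line (EGFR, EPCAM, CDH1 and 5 keratins) were above 1 CPM in every group. Among the markers of mast cells, which use IL1RL1, TPSAB1, CPA3 and FCER1A had no count in any library. Of the T and B cell markers, CD2 and MS4A1 had none, CD3E had 6 counts over all libraries and CD79A 42, a mean of 0.147 CPM at 72 h. The data are from bulk RNA, in which fewer cells that express a gene and less of its RNA per cell cannot be told apart. All 4 EGF times are compared with the same 4 control libraries.

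Of the 10 members, 7 did not overlap with the control at 12 h, 6 of them with all 4 EGF libraries above all 4 control libraries and 1 below. At 24 h the numbers were 7 above and 1 below. At 48 h they were 5 above and 2 below, and at 72 h 8 above and 1 below. IL1RL1, IL1R2, IL1RAP, IL1RN and IL18 were above the control libraries at every time, and IL1R1 was below them at every time. For scale, 69.4% of all 16522 genes tested differed from control at 12 h at an adjusted p under 0.05 (edgeR's quasi-likelihood test, Benjamini-Hochberg adjustment), 58.8% at 24 h, 45.8% at 48 h and 61.6% at 72 h. These shares rest on a test and not on overlap between libraries, for which no share over all genes is given, so the 2 are unlike measures. The members were chosen on these contrasts, so nothing is read from their counts. The filter on low counts was passed by 8 of the 10 members, and IL33 and IL36G failed it.

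IL1RL1 (ENSG00000115602), the IL-33 receptor, was barely detected in untreated cells and was above every control library at all 4 times. The 4 control libraries held 1, 0, 2 and 0 counts, or 0.0502, 0, 0.0854 and 0 CPM. At 12 h the libraries read 70.5, 74.1, 72.2 and 65.9 CPM. At 24 h they read 14.8, 18.7, 19.4 and 21.2 CPM. The level was thus at its height at the first time sampled and had come down a day after EGF was added. At 48 h the libraries read 6.76, 4.30, 10.6 and 9.52 CPM. At 72 h they read 60.2, 60.2, 46.8 and 46.7 CPM. The 5 groups were in the order 12 h, 72 h, 24 h, 48 h and control, and no neighbouring groups in that order overlapped. Group means were 0.034 ± 0.042, 70.7 ± 3.51, 18.5 ± 2.70, 7.79 ± 2.82 and 53.5 ± 7.76 CPM from control to 72 h (SD, n = 4).

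With only 3 IL1RL1 counts in the control, its fold is a ratio of summed counts, for which exact 95% intervals cover counting error only. The ratio to control was 2067 (interval 707 to 10026) at 12 h, 541 (185 to 2628) at 24 h, then 235 (80.2 to 1145) at 48 h and 1593 (545 to 7730) at 72 h. Without control replicate 3, which held 2 of the 3 control counts, these ratios were 4549, 1191, 518 and 3507. Between EGF times, where the counts allow a fitted value, the log2 fold change was −1.93 ± 0.17 (SE) from 12 to 24 h, −1.23 ± 0.19 from 24 to 48 h and 2.76 ± 0.18 from 48 to 72 h. The 72 h level was the lower of the 2 peaks by a log2 fold change of −0.40 ± 0.16, or −0.19 with libraries scaled by their totals alone. The counts sum the membrane receptor and the soluble form, which the table does not separate. IL1RL1 shares 95 exon bases with its neighbour IL18R1 on the same strand, 1.65% of its exon bases.

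IL1R2 (ENSG00000115590), the decoy receptor, had no count in any control library. Its libraries read 4.85, 5.39, 6.24 and 4.26 CPM at 12 h, and 2.57, 2.71, 3.78 and 3.07 CPM at 24 h. They read 1.11, 0.880, 1.41 and 1.13 CPM at 48 h, and 6.59, 6.77, 4.58 and 7.28 CPM at 72 h. As for IL1RL1, the level was high at 12 h, lowest among the EGF times at 48 h and high again at 72 h, but here the 72 h and 12 h libraries overlapped. Against a floor of 3 counts over the control group, the level at 12, 24, 48 and 72 h exceeded control at least 151, 87.9, 33.7 and 185-fold. The log2 fold change was −0.78 ± 0.18 from 12 to 24 h, −1.40 ± 0.20 from 24 to 48 h and 2.46 ± 0.20 from 48 to 72 h.

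IL1R1 (ENSG00000115594), the signalling receptor for IL-1α and IL-1β, was the one receptor with its highest level in untreated cells. The control libraries read 31.3, 29.8, 35.6 and 32.2 CPM. At 12 h they read 21.2, 22.3, 28.4 and 24.1 CPM, and at 24 h 13.2, 14.8, 14.6 and 15.0 CPM. The level was lowest at 24 h and 72 h, with a partial return between them. At 48 h the libraries read 20.9, 20.1, 20.7 and 22.9 CPM, and at 72 h 14.7, 16.7, 16.3 and 13.9 CPM. The control stood above every EGF group, while 12 h overlapped with 48 h and 72 h with 24 h. The log2 fold change against control was −0.42 ± 0.09 (SE) at 12 h, −1.16 ± 0.09 at 24 h, then −0.61 ± 0.09 at 48 h and −1.06 ± 0.09 at 72 h. The 12 h value depends on scaling: it was −0.71 when libraries were scaled by their totals alone, a scaling that also put the median of all genes at −0.34 in place of −0.05. In the authors' normalized values the differences were smaller, in order of time −0.17, −0.69, −0.18 and −0.58.

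IL1RAP (ENSG00000196083), the coreceptor that IL1R1 and IL1RL1 both need, was above control at every time and highest at 12 h. The control libraries read 32.1, 26.1, 36.9 and 32.9 CPM, and the 12 h libraries 79.9, 77.5, 92.5 and 87.0 CPM. The 24 h libraries read 41.1, 43.1, 47.5 and 47.6 CPM, and the 48 h libraries 42.7, 38.1, 53.4 and 49.1 CPM. At 72 h the libraries read 54.8, 62.5, 51.7 and 52.1 CPM. The 12 h group stood apart above the rest, 72 h overlapped with 48 h and 48 h with 24 h, and the control was below them all. Its log2 fold change against control was 1.40 ± 0.10 (SE) at 12 h, 0.49 ± 0.11 at 24 h, then 0.52 ± 0.10 at 48 h and 0.79 ± 0.11 at 72 h. In the authors' normalized values the differences were larger, at 2.03, 0.73, 1.00 and 1.22. It shares 535 exon bases, 4.63%, with the transcript AC108747.1 on the same strand.

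**Figure D1:**
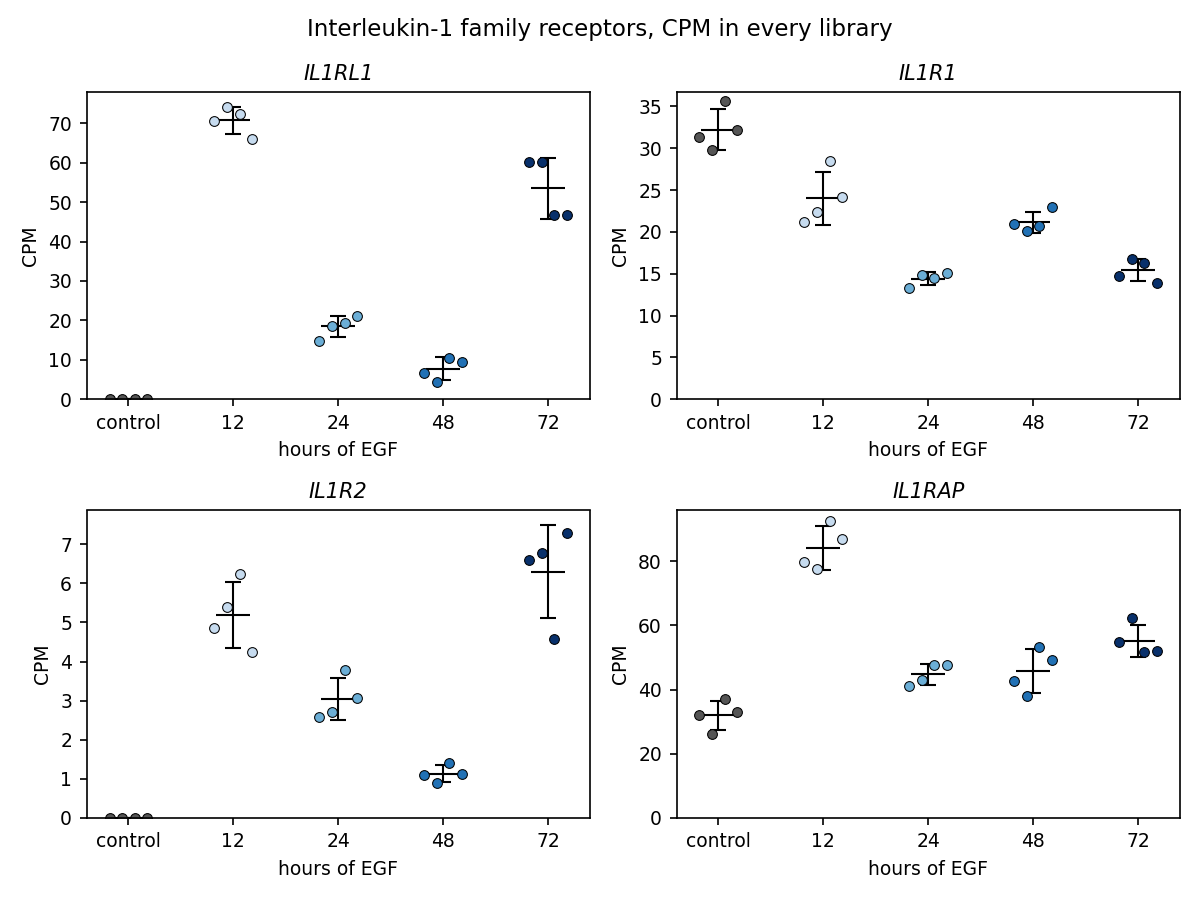
Levels of the 4 receptor genes in each library (vertical axis, CPM) by group (horizontal axis, control and hours of EGF). Points are libraries, and bars show the mean ± SD over 4 libraries. IL1RL1 and IL1R2 have high points at 12 h and 72 h with the lowest EGF level at 48 h, IL1RAP is highest at 12 h, and IL1R1 is highest in the control.

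Levels of different genes are compared per kilobase of merged exon (CPM per kb), since a longer transcript gives more fragments. In control cells IL1R1 was the more abundant of the 2 signalling receptors, with IL1RL1 at 0.0012 of its level. The ratio of IL1RL1 to IL1R1 was 3.67 ± 0.50 at 12 h, 1.58 ± 0.15 at 24 h, then 0.451 ± 0.156 at 48 h and 4.29 ± 0.63 at 72 h (SD, n = 4). The order of these receptors thus changed with time, IL1RL1 being the higher at 12, 24 and 72 h and IL1R1 in the control and at 48 h. The ratio of IL1RAP to IL1R1 was 0.607 ± 0.047 in the control, 2.16 ± 0.13 at 12 h, 1.91 ± 0.09 at 24 h, then 1.33 ± 0.18 at 48 h and 2.20 ± 0.17 at 72 h. With the length of the longest annotated transcript these ratios were 0.941, 3.35, 2.96, 2.06 and 3.42, so that in control cells IL1RAP and IL1R1 were near each other. IL1R1 stood over the decoy IL1R2 by ratios of 2.03, 2.10 and 8.31 at 12, 24 and 48 h. At 72 h that ratio was 1.10 ± 0.31, and it was 0.780 when the longest annotated transcript set the length, so no order is given for that time.

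IL1RN (ENSG00000136689), the receptor antagonist, was above control at every time and highest at 72 h. The control libraries read 13.2, 14.8, 11.6 and 12.3 CPM, and the 12 h libraries 63.3, 66.9, 59.7 and 62.6 CPM. The 24 h libraries read 50.2, 55.3, 59.8 and 58.3 CPM, and the 48 h libraries 50.1, 49.1, 48.8 and 46.7 CPM. The level thus came down somewhat over the first 3 times and was higher at the last. From 12 to 48 h the log2 fold change was −0.38 ± 0.08 (SE), with no overlap between these groups. At 72 h the libraries read 136, 113, 118 and 118 CPM. The 72 h group stood above all others, 12 h and 24 h overlapped, and the control was lowest. The log2 fold change against control was 2.28 ± 0.08 (SE) at 12 h, 2.11 ± 0.08 at 24 h, then 1.91 ± 0.08 at 48 h and 3.23 ± 0.08 at 72 h, and from 48 to 72 h it was 1.32 ± 0.08.

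IL18 (ENSG00000150782), made as a precursor that caspase-1 cleaves, was above control at every time and highest at 12 h. The control libraries read 54.3, 49.2, 64.9 and 50.0 CPM, and the 12 h libraries 325, 326, 342 and 328 CPM. The 24 h libraries read 259, 300, 277 and 322 CPM, and the 48 h libraries 120, 100, 146 and 134 CPM. At 72 h the libraries read 152, 157, 147 and 157 CPM. Its order was 12 h, 24 h, 72 h, 48 h and control, with no overlap between neighbours. The log2 fold change against control was 2.60 ± 0.10 (SE) at 12 h, 2.41 ± 0.10 at 24 h, then 1.19 ± 0.10 at 48 h and 1.49 ± 0.10 at 72 h. From 24 to 48 h it was −1.21. Unlike IL1RL1, IL1R2 and IL1RN, its 72 h level was not close to or above its 12 h level: the means were 330 ± 7.68 CPM at 12 h and 153 ± 4.62 CPM at 72 h.

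IL1B (ENSG00000125538) and IL1A (ENSG00000115008), the agonists of IL1R1, had no count in any control library, and each had its highest libraries at 72 h. IL1B counts were 0 in all control libraries, 1, 2, 2 and 2 at 12 h, 3, 3, 9 and 3 at 24 h, 3, 1, 0 and 4 at 48 h and 47, 35, 26 and 25 at 72 h. The 72 h libraries read 1.81, 1.99, 1.45 and 1.60 CPM, above every other library. Against a floor of 3 counts over the control group, IL1B at the 4 times in turn was at least 2.66, 7.13, 2.70 and 50.6-fold higher. These bounds leave out the counting error of the EGF libraries, which held 7, 18 and 8 counts at 12, 24 and 48 h. The ratio of 72 h to 48 h was 18.7 (95% interval 9.24 to 44.3, counting error only).

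IL1A counts were 0 in all control libraries, 0, 1, 1 and 0 at 12 h, 1, 2, 7 and 2 at 24 h, 1, 0, 5 and 4 at 48 h and 23, 22, 19 and 11 at 72 h. As for IL1B, the 72 h libraries, at 0.886, 1.25, 1.06 and 0.703 CPM, were above every other library. IL1A was at least 4.75, 3.37 and 28.5-fold higher than control at 24, 48 and 72 h, and no fold is given at 12 h because both groups were under the floor. Without EGF 24 h replicate 3, which held 7 of the 12 IL1A counts and 9 of the 18 IL1B counts of its group, the 24 h bounds were 2.51-fold for IL1A and 4.52-fold for IL1B. The ratio of 72 h to 48 h was 8.45 (4.35 to 18.3). The antagonist remained the more abundant transcript: per kb, IL1RN at 72 h was 37.6 ± 6.64 times the sum of IL1A and IL1B (SD, n = 4).

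Markers of cells that make IL-1 were measured beside these values. Of 7 markers of macrophages and monocytes, all had a count in some library and 3 had a mean above 1 CPM over all 20 libraries. Their summed level was 7.53 to 10.01 CPM in the control libraries and 37.4 to 45.2 CPM at 72 h, most of it at 72 h from CD68, a lysosomal protein whose level was 1.15 ± 0.33 CPM in control cells and 26.7 ± 2.13 CPM at that time. From control to 72 h the means of CSF1R were 3.96 and 8.70 CPM, of CD14 2.98 and 4.36 CPM, of LYZ 0.401 and 1.37 CPM and of ITGAM 0.184 and 0.873 CPM. The pan-leukocyte marker PTPRC was at 0.0988 ± 0.0602 CPM in control cells and 0.184 ± 0.104 CPM at 72 h, and FCGR3A had 1 count over all 20 libraries together. The part of such cells in the IL1A and IL1B values was not tested.

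IL36G and IL33 were near the limit of detection. IL36G, an epithelial ligand of the receptor IL1RL2, had 36 counts in all: 0, 0, 1 and 0 in the control, 1, 0, 1 and 0 at 12 h, 0, 3, 2 and 3 at 24 h, 3, 0, 5 and 2 at 48 h and 3, 6, 4 and 2 at 72 h. Its 72 h libraries all lay above the control, by a ratio of 17.1 (95% interval 2.63 to 720). Without control replicate 3, which held the 1 control count, it was at least 4.18-fold. IL33, the ligand of IL1RL1, had 23 counts in all: 2, 2, 4 and 4 in the control, 1, 0, 0 and 2 at 12 h, 0, 1, 0 and 2 at 24 h, 0 in every library at 48 h and 4, 1, 0 and 0 at 72 h. Against the same floor, IL33 was at least 3.95-fold lower at 48 h, the 1 time without overlap with the control. At 12, 24 and 72 h the ratios to control were 0.285 (0.052 to 1.06), 0.297 (0.054 to 1.10) and 0.475 (0.131 to 1.45), intervals that include 1. Without the library with most counts (replicate 4 at 12 and 24 h, replicate 1 at 72 h) they were 0.130, 0.137 and 0.143. The receptor of IL-33 was thus read from 11701 counts in all and its ligand from 23.

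**Figure D2:**
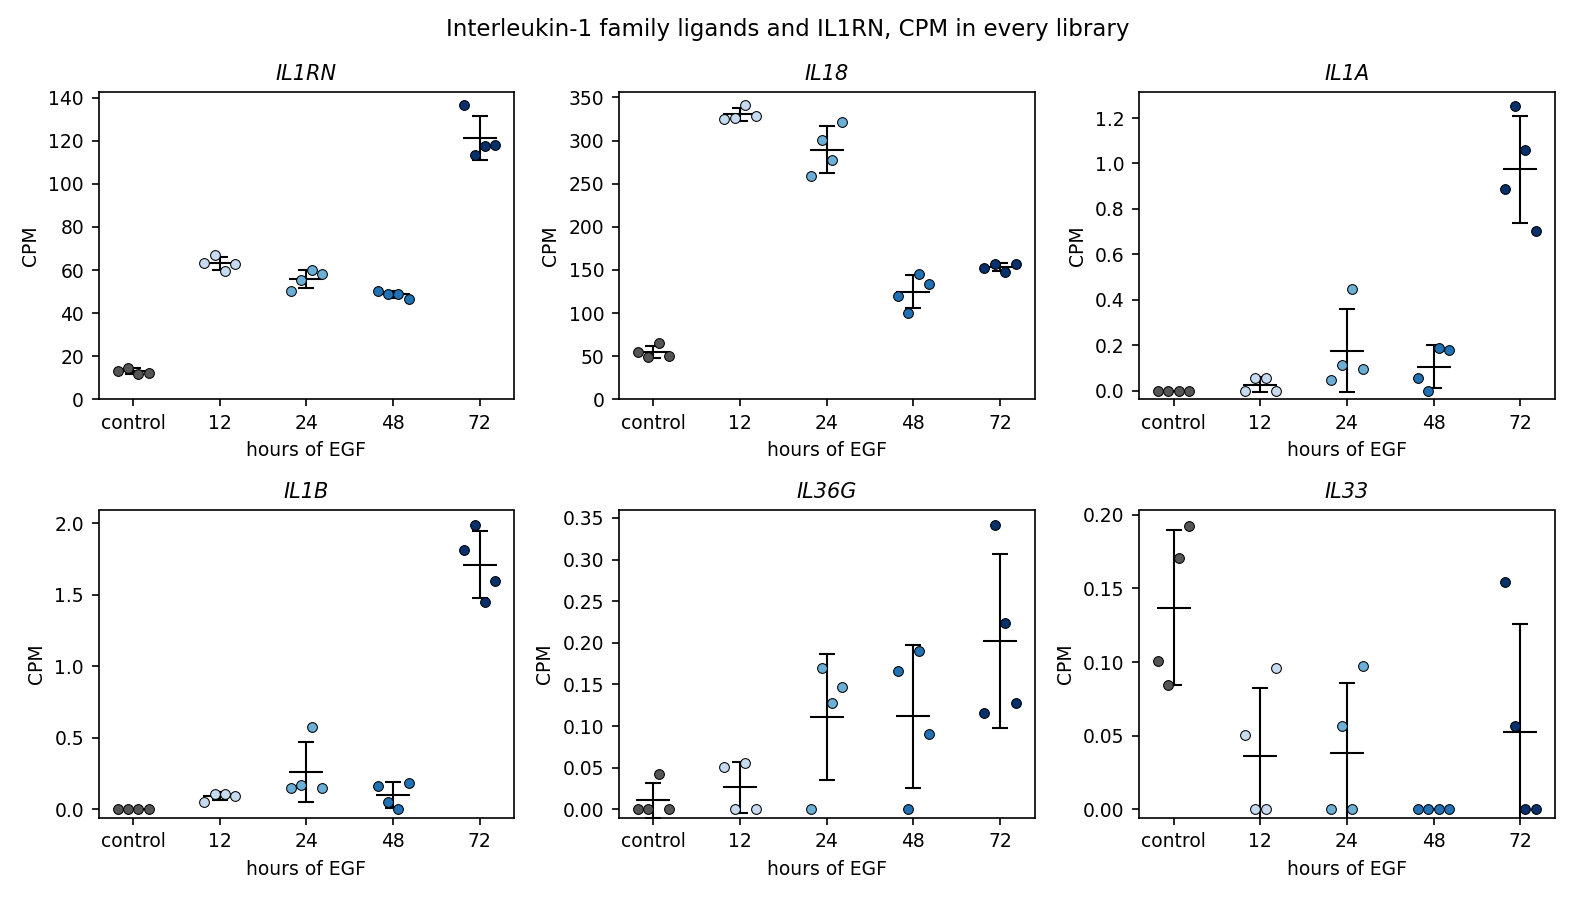
Levels of the 6 ligand genes in each library (vertical axis, CPM) by group (horizontal axis, control and hours of EGF). Points are libraries, and bars show the mean ± SD over 4 libraries, cut at 0. IL1A and IL1B have their high points at 72 h, IL1RN is raised at all times and highest at 72 h, IL18 is highest at 12 h, and IL33 and IL36G rest on a few counts.

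Members of one cluster did not share one time course. In the receptor cluster IL1R2 and IL1RL1 had similar courses, while IL1R1, which lies between them, was lower than control throughout. In the ligand cluster the outer genes IL1A, IL1B and IL1RN all had their highest mean at 72 h. So did the genes with counts between them, IL37, IL36G, IL36B, IL36RN and, with 2 counts in all, IL1F10. At 12 h all 4 libraries were above control for IL1RN and, with 1 or 2 counts each, for IL1B, but not for IL1A. Over the 20 libraries the log2 CPM values of IL1A and IL1B had a Pearson r of 0.931, and IL1R1 had negative values with each of the other 7 members that passed the filter (−0.79 to −0.18). These libraries share 5 group means, so the values describe likeness of courses and are given with no p.

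Among all genes that passed the filter, the courses most like that of IL1RL1 were those of LIPH (r = 0.990), IL1R2 (0.990) and SGK1 (0.988), a kinase gene. For IL1R2 they were AREG (0.992), which encodes an EGF receptor ligand, IL1RL1 (0.990) and STC2 (0.987). For IL1R1 they were EGLN3 (0.981), PLPP3 (0.964) and CYP4Z1 (0.963), and for IL1RAP B4GALT4 and NABP1 (0.967 each) and PDLIM5 (0.964). IL1RN was closest to GNG4 (0.992), IL2RG (0.989) and NRP2 (0.983), and IL18 to UBASH3B, TSC22D1 and SNX9 (0.989 each). The closest genes were less close for the sparse IL1A (SRP54, 0.935, ZNF841 and ARF4, 0.934 each) and IL1B (ZNF587, 0.951, SEC23IP, 0.934, and AC004816.1, 0.932).

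**Figure D3:**
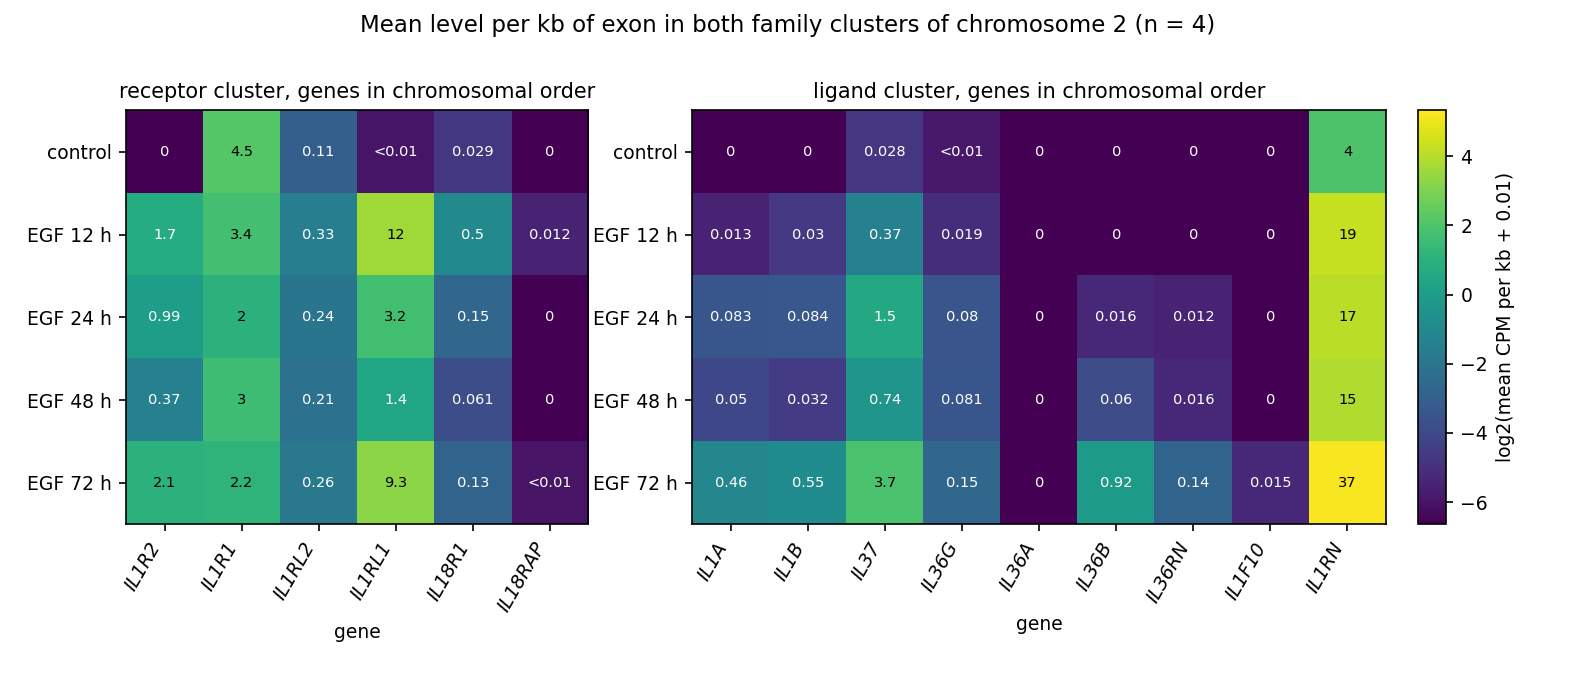
Mean level per kilobase of exon (colour, log2 scale of CPM per kb) of the family genes in the receptor and ligand clusters. Genes are in genomic order (horizontal axis), by group (vertical axis, control and hours of EGF). Each cell is the mean of 4 libraries. In its column IL1R1 is highest in the control, while IL1R2 and IL1RL1 of the same cluster are highest at 12 h and 72 h.

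The rest of the family was tested gene by gene. Of the 6 other ligands and binding proteins, 5 had a count and 3 passed the filter, and 2 of these 3 were higher at 12, 24 and 48 h and all 3 at 72 h. IL36B and IL37 had 0 and 2 control counts and passed the filter through their levels with EGF, so they could not have been called lower and nothing is read from this split. At 12 h 32.9% of all genes tested were higher and 36.5% lower than control, at 24 h 29.2% and 29.6%, at 48 h 24.0% and 21.8%, and at 72 h 30.6% and 31.0%.

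IL37, an anti-inflammatory ligand, had 1, 0, 1 and 0 counts in the control and 3.31, 3.19, 2.51 and 3.26 CPM at 72 h. It was higher at all 4 times, with ratios to control of 13.7 (3.39 to 119), 54.1 (14.5 to 453), 26.8 (7.07 to 227) and 136 (37.2 to 1127) and adjusted p values of 1.09e-04, 1.08e-08, 2.17e-06 and 3.56e-11. IL36B, an agonist of IL1RL2, had no count in the control or at 12 h and read 2.00, 1.71, 1.28 and 1.85 CPM at 72 h, at least 50.9-fold higher than control (adjusted p = 6.35e-08). Like IL1A and IL1B, these genes of the same cluster had their highest level at 72 h. IL36B was also called at 48 h (at least 3.04-fold, adjusted p = 0.00981), where 1 library had no count. IL36RN, the antagonist of IL1RL2, failed the filter and was not tested. It had no count in the control and 0.385, 0.626, 0.223 and 0.575 CPM at 72 h, at least 12.9-fold higher. IL18BP, the IL-18 inhibitor, rose by a log2 fold change of 1.01 ± 0.21 (SE) at 12 h (adjusted p = 1.33e-04), 1.10 ± 0.21 at 24 h (6.99e-05) and 1.01 ± 0.21 at 72 h (1.72e-04). NUMA1 on the opposite strand overlaps 15.6% of the IL18BP exon bases, and the strand setting of the counting is not given in the sources used here. Per kb, IL18 was 59.95 times IL18BP in the control and 165, 138, 91.8 and 78.8 times at the 4 EGF times. IL1F10 had 2 counts in all and IL36A none.

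Of the 6 other receptors, 4 passed the filter, and 2, 3, 0 and 2 of them were higher at 12, 24, 48 and 72 h, with 1 lower at 72 h. Their median log2 fold change was 0.78, 0.87, 0.49 and 0.75. Of all genes tested, 32.9%, 29.2%, 24.0% and 30.6% were higher at these times, and 31.0% were lower at 72 h. IL18R1 and IL1RL2, with 11 and 27 control counts, passed the filter through their levels with EGF, so nothing is read from this split or median. IL18R1, the IL-18 receptor, had a mean of 0.1254 CPM in control cells against 2.16 CPM at 12 h, a log2 fold change of 4.04 ± 0.32 (adjusted p = 5.00e-11). It stood at 2.29 ± 0.36 at 24 h (6.65e-06) and 2.17 ± 0.37 at 72 h (1.32e-05), and its 95 shared bases with IL1RL1 are 2.18% of its exon bases. Its accessory chain IL18RAP had 4 counts in all libraries together. IL1RL2, the IL-36 receptor, was higher at 12 h by 1.52 ± 0.42 (adjusted p = 0.0023), at 24 h by 1.05 ± 0.44 (0.0418) and at 72 h by 1.20 ± 0.43 (0.0173), all at under 1 CPM on average. The 24 h call was lost with libraries scaled by their totals alone (0.91) and with upper-quartile factors (1.00). SIGIRR, an inhibitory member, was lower at 72 h (−0.52 ± 0.15, adjusted p = 0.00478), with libraries that overlapped the control. IL1RAPL2 was higher at 24 h (0.70 ± 0.18, adjusted p = 0.00138). IL1RAPL1 was not tested, with no count in the control and 25 at 72 h, at least 9.51-fold higher.

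The 14 genes of the signal chain that joins the receptors to NF-κB all passed the filter. At 12 h 12 were higher and 2 lower, and at the later times 6, 6 and 7 were higher and 3, 2 and 3 lower. Their median log2 fold change was 0.43, 0.12, 0.11 and 0.18. The 12 h count depends on scaling, since 5 genes were higher and 2 lower with libraries scaled by their totals alone and 8 higher and 2 lower with upper-quartile factors. IRAK2, a kinase-like protein of the receptor complex, had the largest change: from 0.774 ± 0.200 CPM in the control it was higher at every time, its log2 fold changes being 1.55, 1.56, 1.86 and, at 72 h, 2.92 ± 0.18 (adjusted p = 1.36e-12). IRAK3, which restrains the pathway, was 1.29 ± 0.14 higher at 72 h (1.66e-08). IRAK4, the first kinase of the complex, was lower at 12 h (−1.01 ± 0.11, adjusted p = 2.47e-08). TAB3, an adaptor of the TAK1 kinase, was higher at 12 h by 1.00 ± 0.09 (3.64e-10).

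Of 14 genes of ligand processing and release, 10 passed the filter. At the 4 times 3, 5, 6 and 7 were higher and 2, 2, 1 and 1 lower, with a median log2 fold change of 0.13, 0.37, 0.52 and 0.88. At 12 h that median was −0.16 with libraries scaled by their totals alone. Among genes with a mean of at least 1 CPM the largest changes were in ANXA2 and S100A10, which form a complex at the cell membrane. The inflammasome sensor NLRP1, under that limit and so outside the rule for named genes, differed by more: it had 0.236 ± 0.185 CPM in control cells and 2.35 ± 0.47 CPM at 72 h, a log2 fold change of 3.33 ± 0.39 (adjusted p = 8.33e-08). ANXA2 had means of 1035 CPM in control cells and 5089 CPM at 12 h (2.30 ± 0.06 on the log2 scale, adjusted p = 4.60e-19), and S100A10 was higher by 1.52 ± 0.06 (5.62e-17). CTSS, the protease cathepsin S, was 1.40 ± 0.11 higher at 72 h (9.23e-11), and CASP4, an inflammatory caspase, 1.21 ± 0.09 higher (1.23e-11). CASP1, the caspase that cleaves the IL-1β and IL-18 precursors, was lower at 12, 24 and 48 h by log2 fold changes of −0.34, −0.85 and −0.26 (adjusted p = 0.0022, 3.42e-08 and 0.0221) and was 0.11 ± 0.09 from control at 72 h, where the test was not passed (adjusted p = 0.318). CASP1 is outside the rule for named genes and is given because it processes 2 of the members.

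Of 22 listed targets of IL-1 signalling, 17 passed the filter. At the 4 times 15, 12, 13 and 13 were higher and 1, 3, 1 and 0 lower, with a median log2 fold change of 2.43, 1.11, 1.63 and 2.79. CSF2 and MMP1 had no control count and CXCL3 had 2, so these could not have been called lower and nothing is read from this split. With CSF2 and MMP1 at their lower bound the median was 2.32 at 12 h and 1.51 at 48 h. CXCL8, a neutrophil chemokine, was at a mean of 1.57 ± 0.46 CPM in the control and at 675 ± 24.5, 99.99 ± 47.3, 40.6 ± 8.87 and 165 ± 36.8 CPM at 12, 24, 48 and 72 h (SD, n = 4). Its log2 fold change was 8.73 ± 0.43 (SE) at 12 h (adjusted p = 1.63e-11), 5.98 at 24 h, then 4.68 at 48 h and 6.70 at 72 h. The chemokine genes CXCL1 and CXCL3 were also highest at 12 h, CXCL1 by 7.45 ± 0.38 (7.77e-12) and CXCL3 by a count ratio of 287 (interval 78.9 to 2373, adjusted p = 3.36e-14). CSF2, which encodes the growth factor GM-CSF, had no count in the control and was at least 24.3, 15.8, 13.5 and 190-fold higher (adjusted p = 7.16e-08 at 12 h and 2.98e-12 at 72 h). CXCL8 had its lowest EGF level at 48 h, as IL1RL1 and IL1R2 did, while CSF2 was highest at 72 h, as IL1A and IL1B were. These genes are also induced by other signals, and whether IL-1 receptors take part in their levels here was not tested.

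**Figure D4:**
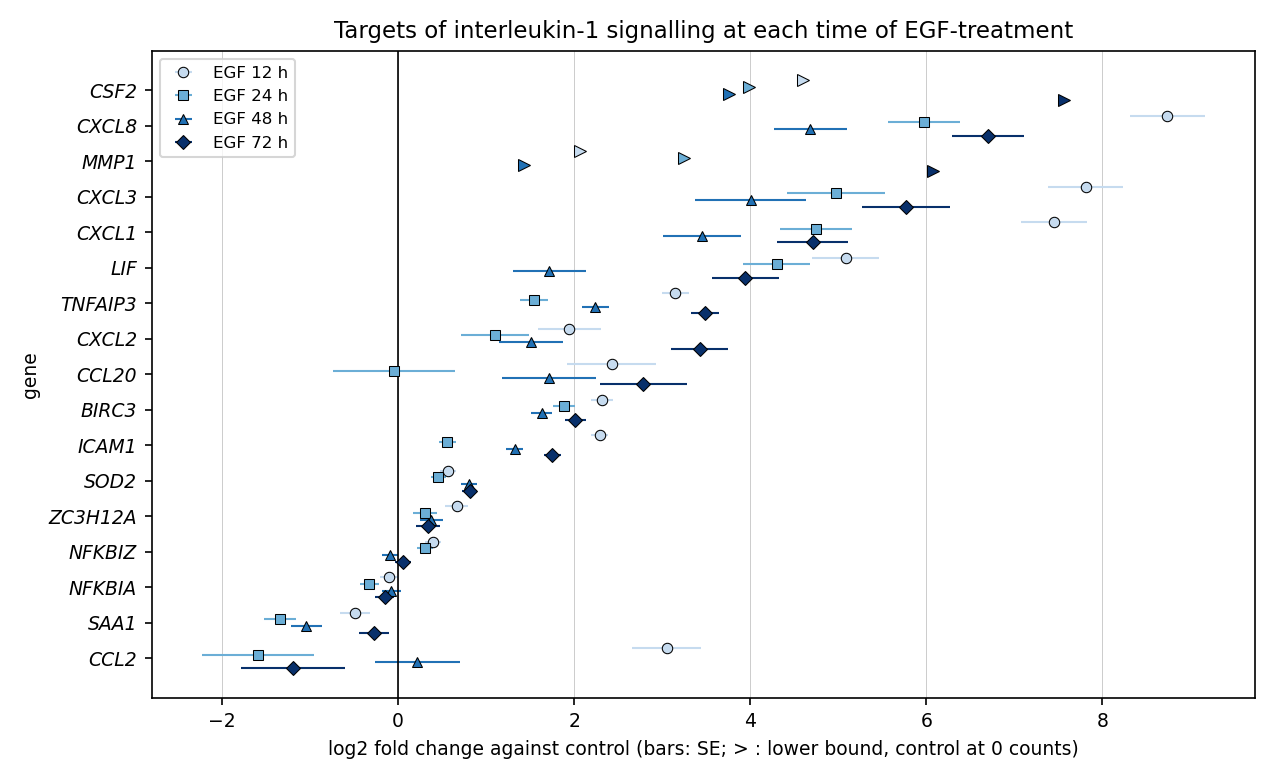
Log2 fold change ± SE against control (horizontal axis) of the 17 tested targets of IL-1 signalling (vertical axis) after 12, 24, 48 and 72 h with EGF. A > sign marks a lower bound for a gene with no control count. Most points lie to the right of 0, and CXCL8, CXCL1 and CXCL3 each have their largest value at 12 h.

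Over the 5 lists together, 48 of 62 genes passed the filter. At 12 h 34 were higher and 5 lower, at 24 h 28 and 8, at 48 h 27 and 4 and at 72 h 32 and 5. The medians of the 48 log2 fold changes were 0.61, 0.52, 0.47 and 0.75 against −0.05, −0.01, 0.01 and −0.01 over all genes tested. Of the 48, IL36B, CSF2 and MMP1 had 0 control counts, IL37 and CXCL3 had 2 each, IL18R1 had 11 and IL1RL2 had 27. These genes passed the filter through their levels with EGF. Other listed genes that were low in the control, NLRP1 among them, may have passed in the same way. For this reason nothing is read from these splits and medians. Of all genes called at 12 h, 47.4% were higher, but 30.2% with libraries scaled by their totals alone and 37.2% with upper-quartile factors. At 24 h the share was 49.6%, and 36.3% with totals alone. No list was tested as a set.

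**Figure D5:**
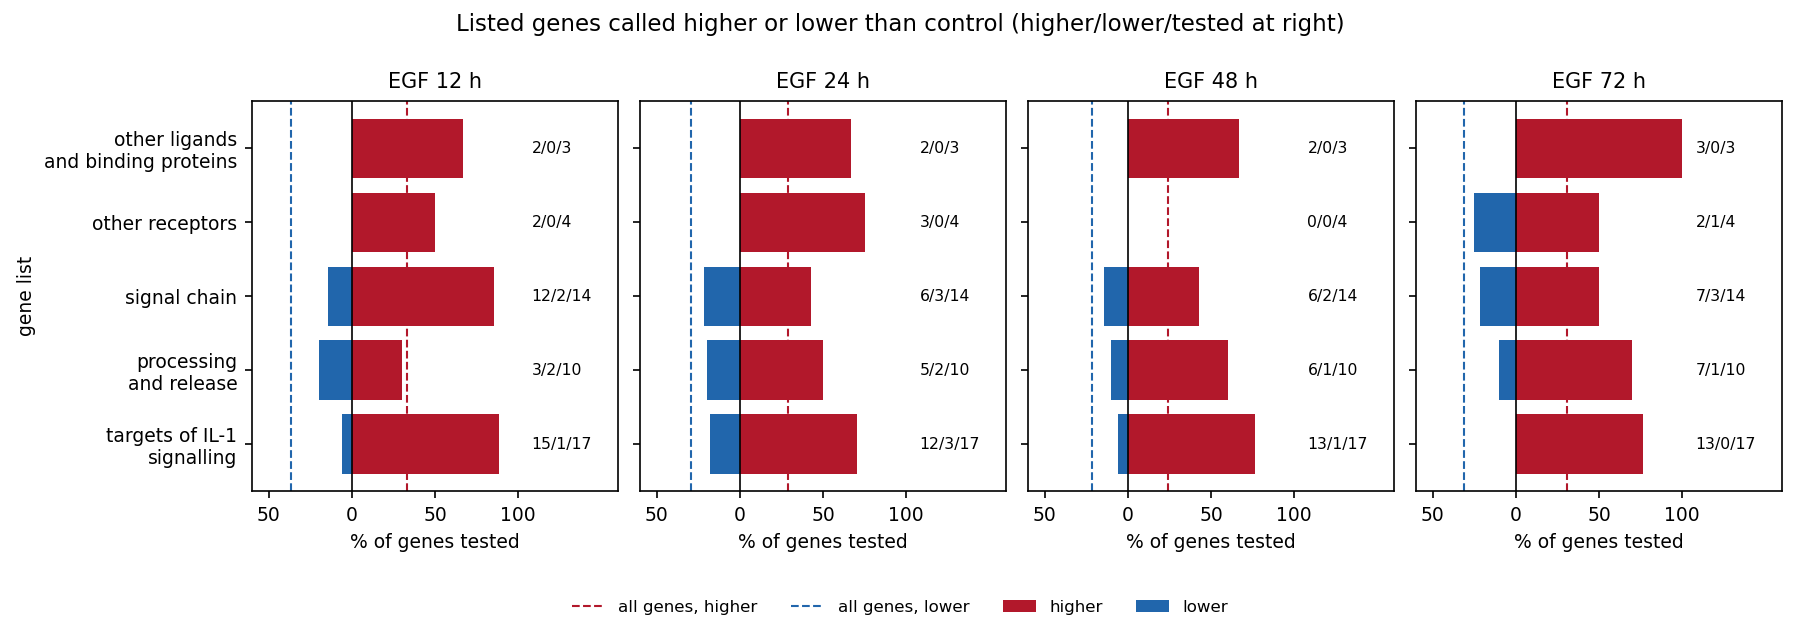
Percent of the tested genes of each list that were higher (to the right) or lower (to the left) than control at 12, 24, 48 and 72 h, at an adjusted p under 0.05. Dashed lines give the percent of all 16522 genes tested, and the numbers at the right are higher, lower and tested. The targets of IL-1 signalling are to the right of the dashed line at every time, and CSF2, MMP1 and CXCL3 among them could not have been called lower.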

How the data were processed

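Per the labels, RNA from MDA-MB-468 cells was prepared with a Corall mRNA kit and sequenced on an Illumina instrument as single-end reads. The authors deposited whole-number estimated counts per gene, mapped to hg38 per the submitters' processing notes, which also name DESeq2. The aligner, annotation, strand setting and treatment of molecular identifiers are not given in the sources used here. The authors also deposited normalized values, used here as a score, in which each count is divided by a factor that varies by gene and library. Columns with the authors' fold changes and p-values were not used. All 10 deposited tables held the same counts, and 1 was read.

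Counts of all 20 libraries (15611961 to 25856953 each) were fitted with edgeR 4.0.16 (R 4.3.3, limma 3.58.1), with TMM scaling, filterByExpr, which kept 16522 genes, robust quasi-likelihood dispersion, 1 mean per group and a prior count of 0.125. Benjamini-Hochberg adjusted p-values under 0.05 were called. The members and lists were chosen with earlier results of these data known. Members carry no test. Named pathway genes are, per list, up to 4 called genes with the largest change and a mean of at least 1 CPM, and every other family gene with a count. Exact 95% intervals cover counting error only. Bounds against a floor of 3 counts over the group take the count of the other group as it stands, without its counting error. Genes were placed with GENCODE 29, and figures were drawn with matplotlib 3.10.9. The fit was tested on simulated data. The alternatives were other scalings and filters, DESeq2 1.42.0, pairs of groups alone, a prior count of 2, a replicate block, leaving out each library and, chosen after seeing the data, the deposited normalized values.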

Additional observations from a re-analysis of the deposited data

Results flagged for a closer look

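In EGF 24 h replicate 3, IL1A read 0.449 CPM and IL1B 0.577 CPM, each far above the other 3 libraries of that group. These were the 2 values, both in 1 library, set apart by Dixon's criterion among 38 groups of 4 examined, and chance sets apart about 1 group in 20. The counts behind them were 7 and 9. Without this library the bounds against control fell to 2.51-fold for IL1A and 4.52-fold for IL1B at 24 h, and both genes still had their highest levels at 72 h.

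For 5 listed genes the difference from control was called in opposite directions at different times, and the contrast between those EGF times was called too (adjusted p from the same edgeR fit). These genes were picked out after their values were seen, and all of these calls were required for the choice. Each adjusted p between EGF times was thus under 0.05 by the choice, and these values only describe the differences. MYD88, the adaptor of the receptors, was 0.66 above control at 12 h on the log2 scale and below it later, and the fold change against 12 h was −0.92 at 24 h (adjusted p = 2.84e-09), −1.01 at 48 h (9.93e-11) and −0.89 at 72 h (1.23e-09). The call against control at 72 h (−0.24) was lost with at least 10 counts required in every library (−0.18). TOLLIP, which binds the IRAK complex, was 0.49 above control at 12 h, and the fold change against 12 h was −0.77 at 24 h (8.24e-07), −0.75 at 48 h (3.89e-07) and −0.81 at 72 h (1.75e-07). Its rise at 12 h was not called with libraries scaled by their totals alone (0.20), and its later calls, at −0.28, −0.26 and −0.32, were lost in some alternatives at 24 and 48 h. IRAK4 was below control at 12 h (−1.01), and the fold change against 12 h was 1.32 at 48 h (2.56e-10) and 1.27 at 72 h (8.18e-10). The later calls of IRAK4 against control were small (0.32 at 48 h and 0.26 at 72 h) and were lost without any of several single libraries, at 0.25 to 0.26 and 0.20 to 0.27. GSDME, a pore-forming gasdermin, was at −1.05 at 12 h, and the fold change against 12 h was 1.82 at 48 h (1.56e-05) and 2.41 at 72 h (2.30e-07). Its call against control at 48 h (0.77) was lost with DESeq2, with no filter on low counts, without control replicate 2 (0.65) and without EGF 48 h replicate 1 (0.69). CCL2, a monocyte chemokine, was 3.05 above control at 12 h and 1.59 below it at 24 h, a fold change between them of −4.64 (3.60e-08). The 24 h call against control was lost without control replicate 1 or 2 or EGF 24 h replicate 1, 3 or 4, at −1.61 to −1.26.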

How the results depend on the processing

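IL1R1, IL1RAP, IL1RN and IL18 kept their direction against control in every alternative run. Left-out libraries moved no fitted log2 fold change of a member by more than the spread between replicates. For the other members, with few or no control counts, the only alternative against control was to leave single libraries out of the count ratios (ratios of few counts are given with the genes). With libraries scaled by their totals alone, the log2 fold changes at 12 h were −0.71 for IL1R1, 1.11 for IL1RAP, 2.00 for IL1RN and 2.31 for IL18, and at 24 h −1.30 for IL1R1 and 1.96 for IL1RN. With upper-quartile factors the 12 h values were −0.59 for IL1R1, 2.12 for IL1RN and 2.44 for IL18. In the deposited normalized values (tried once the data had been seen) IL1R1 was at −0.17, −0.69, −0.18 and −0.58 at the 4 times, IL1RAP at 2.03, 0.73, 1.00 and 1.22, and IL1RN at 2.15 at 12 h. The cause of these differences was not tested. Numbers of listed genes called, 39, 36, 31 and 37 at the 4 times, ranged over all alternatives from 29 to 39, 27 to 37, 21 to 31 and 25 to 41. Single calls were followed only for the genes named by the rule, the other family genes and the genes flagged above. Among these, some alternatives lost the calls of IRAK3 at 12 h, IRAK4 at 48 and 72 h and CTSS and CCL2 at 24 h. Also lost were those of IL1RL2 at 24 and 72 h, MYD88 at 72 h, TOLLIP at 12, 24 and 48 h and GSDME at 48 h. Calls of the remaining listed genes, CASP1 and NLRP1 among them, were not followed one by one. The IL1RL2 call at 24 h was lost without control replicate 1, 3 or 4 or EGF 24 h replicate 1 or 2. A replicate block gave 39, 36, 31 and 37 listed genes called. The numbers do not pair the libraries: 7 of 16 correlations of same-numbered libraries were above 0.1, and 5 of 20 libraries correlated best with their own number. Depth limits IL33, IL36G and, outside 72 h, IL1A and IL1B, where 1 count is about 0.05 CPM.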

Other observations

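Markers of other cell types, from lists of known markers, gave further values. KIT, a receptor of mast cells and some epithelia, had 1.49 ± 0.18 CPM in the control (SD, n = 4) and a mean of 0.0282 CPM at 72 h, and it was the only mast cell marker with a count. Of 5 fibroblast markers, only COL1A1 had a mean above 1 CPM, with 6.18 CPM in control cells and 13.9 CPM at 72 h, and the summed level of the list was 5.08 to 7.90 CPM in control cells and 13.1 to 15.0 CPM at 72 h. Of 3 endothelial markers, only PECAM1 had a mean above 1 CPM over all libraries, and the summed level was 1.77 to 3.26 CPM in control cells and 3.07 to 3.51 CPM at 72 h.

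Deposited normalized values of IL1RL1 followed from counts by factors that, relative to each library's median factor, were 0.793 to 0.841 at 12 h and 0.943 to 2.14 at 24 to 72 h.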
